A study of Homo sapiens with 8 samples.

Results

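The neutrophil CXC chemokines are 6 neighbouring genes of human chromosome 4, CXCL1, CXCL2, CXCL3, CXCL5, CXCL6 and CXCL8. Every array probe that carried one of these names was taken, which gave 8 of 58201 probes, with 2 each for CXCL1 and CXCL2 and 1 for each of the other genes. The family was chosen by the log2 ratios of CXCL1 and CXCL2, which were high with both siRNAs against GINS1, so the values of all 6 genes with these siRNAs are a description and were given no test.

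CXC chemokines are small secreted proteins that bind G protein-coupled receptors. Those of this group carry a glutamate-leucine-arginine motif before their first cysteines, act on the receptors CXCR1 and CXCR2 and draw neutrophils into tissue. Epithelial and tumour cells make them after signals such as interleukin 1, tumour necrosis factor or interleukin 17, largely through the transcription factor NF-kB, which binds kB sites close to the start of their genes.

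RNA was measured on 8 Agilent 2-colour arrays of 1 slide. On each array the Cy3 dye marked mock cells, described as without transfection, and the Cy5 dye marked cells of the same line that had received either a microRNA (miRNA) or an siRNA, a short RNA made to silence 1 gene, in Lipofectamine RNAiMAX. Both strands of miR-139, miR-139-5p and miR-139-3p, were put into the renal cancer lines A498 (1 array per strand) and 786-O (1 array per strand). The breast cancer line MDA-MB-231 received siRNA 1 or siRNA 2 of the si-GINS1 group (1 array each), and the colorectal cancer line HCT116 received miR-490-5p or miR-490-3p (1 array each). The miR-139 replicates were thus cell lines and the si-GINS1 replicates siRNAs, p-values measure only the spread between such arrays, and the miR-490 groups had no replicate. No array had its dyes swapped. Since mock cells received no transfection, an effect of the lipid reagent and one of the RNA cannot be told apart on a single array, and it was not given whether both arrays of a line shared a mock extract.

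The scanner software marked 24980 to 29685 probes per array as well above background, and the median spot brightness was 19.4 to 24.4. GINS1, the target of the siRNAs and a subunit of the replicative helicase, had a log2 ratio of -1.31 with siRNA 1 and -1.92 with siRNA 2, and lay between -0.11 and 0.55 on the other 6 arrays. In mock cells VIM was low in HCT116 (6.76 log2 intensity) and at 14.67 or above in the other lines, EPCAM, CDH1 and CDX2 were highest in HCT116, and PAX8 and PAX2 were highest in the renal lines. CA9, a marker of clear cell renal cancer, was not well above background in A498 and was so in only 1 of 2 channels of 786-O, and KRT20, of colorectal epithelium, in only 1 of 2 channels of HCT116. Of 6 leukocyte markers listed 4 were found. PTPRC, of all leukocytes, had a mock level between 6.03 and 6.15 in every line, marked as well above background and dim, and ITGAM one between 5.93 and 6.08. CSF1R was high in 786-O (9.16) and MDA-MB-231 (8.72), and CD14 was highest in MDA-MB-231 (8.27).

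The starts of the 6 genes are shown first because one short word lay at nearly the same place in all of them. The RefSeq promoter table (GRCh38.p14, from 250 bases before to 50 after each start) held all 6 genes. The 9-base kB word GGAATTTCC, sought on both strands, occurred in 6 of the 6, between 77 and 91 bases before the start, against 0.461% of 35116 promoters of the same length. Below, 89 bases around it are given for each gene in the direction of transcription, with the word in capitals.
CXCL1, chr4:73869285-73869373, plus strand: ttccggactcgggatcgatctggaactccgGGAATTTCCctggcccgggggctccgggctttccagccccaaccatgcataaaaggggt
CXCL2, chr4:74099214-74099302, minus strand: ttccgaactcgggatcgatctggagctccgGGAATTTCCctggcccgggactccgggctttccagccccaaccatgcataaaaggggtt
CXCL3, chr4:74038709-74038797, minus strand: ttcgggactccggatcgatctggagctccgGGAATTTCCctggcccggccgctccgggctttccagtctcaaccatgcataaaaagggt
CXCL5, chr4:73998709-73998797, minus strand: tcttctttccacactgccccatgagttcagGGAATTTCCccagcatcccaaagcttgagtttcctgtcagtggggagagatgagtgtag
CXCL6, chr4:73836559-73836647, plus strand: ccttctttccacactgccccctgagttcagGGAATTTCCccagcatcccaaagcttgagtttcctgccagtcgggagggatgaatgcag
CXCL8, chr4:73740448-73740536, plus strand: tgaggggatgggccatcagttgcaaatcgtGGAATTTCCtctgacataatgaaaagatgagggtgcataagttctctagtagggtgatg
The kB word was chosen after these promoters had been read, and the alignments group the genes into 3 kinds. Over the whole stretch the promoters of CXCL1 and CXCL3 were 82.5% identical, those of CXCL1 and CXCL2 71.9% and those of CXCL2 and CXCL3 73.8%. CXCL5 and CXCL6 were 83.1% identical to each other and between 52.9% and 55.4% identical to CXCL1, CXCL2 and CXCL3. The promoter of CXCL8 was at most 48.0% identical to any other. The AP-1 word TGANTCA, the same on both strands, was found in 1 of the 6, that of CXCL8, and in 7.71% of all promoters. The GC box word GGGCGG, sought on both strands, was found in CXCL1, CXCL3 and CXCL6, 3 of the 6, and in 45.0% of all. None of these words overlapped another in these promoters. A match describes letters and no binding was measured here.

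**Figure D1:**
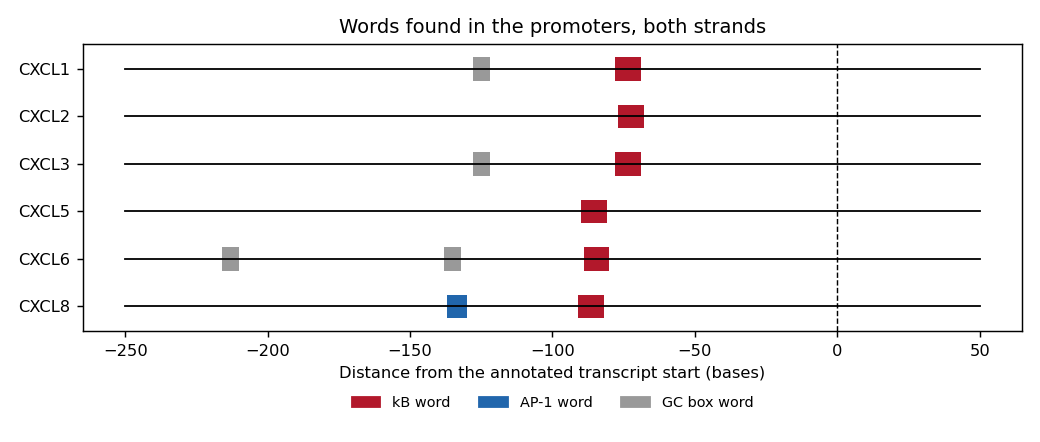
Words found in the promoters of the 6 genes. The horizontal axis gives the distance in bases from the annotated transcript start (dashed line), each line is 1 promoter and each box 1 match on either strand. The kB word lies 77 to 91 bases before the start in all 6, while the AP-1 word appears in CXCL8 and the GC box word in CXCL1, CXCL3 and CXCL6.

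Probe identity matters for CXCL1, CXCL2 and CXCL3, whose transcripts resemble each other. Probe positions are on hg19, as the array annotation gives them, and are not to be set against the GRCh38.p14 positions above. CXCL1 probe 1 lies at chr4:74736850-74736909 and probe 2 at chr4:74735646-74735705, both on the plus strand and annotated to NM_001511. CXCL2 probe 1 lies at chr4:74962985-74963044 and probe 2 at chr4:74964342-74964401 on the minus strand. Probe 2 of CXCL2 is annotated to NM_002089 of CXCL2 and also to NM_002090 of CXCL3, so its signal can hold RNA of both. The second probes of CXCL1 and CXCL2 are shown because they cover related stretches, with the 37 aligned bases in capitals.
CXCL1 probe 2: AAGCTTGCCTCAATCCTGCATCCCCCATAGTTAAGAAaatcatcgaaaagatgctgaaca
CXCL2 probe 2: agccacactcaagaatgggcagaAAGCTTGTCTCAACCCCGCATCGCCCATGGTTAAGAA
In that stretch 32 of 37 bases were identical, which was 86.5%. Of all 28 pairs of the 8 probes no other pair scored above 0 in an ungapped alignment. The other members had 1 probe each, at chr4:74902702-74902761 for CXCL3, chr4:74861898-74861957 for CXCL5, chr4:74703368-74703427 for CXCL6 and chr4:74609265-74609324 for CXCL8. Where these positions fall among exons was not analysed here.

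The transfected miRNAs have unrelated seeds. Their mature sequences in RefSeq follow, with the seed (bases 2 to 8) in capitals.
miR-139-5p: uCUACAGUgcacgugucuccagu
miR-139-3p: uGGAGACGcggcccuguuggagu
miR-490-5p: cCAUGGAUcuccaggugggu
miR-490-3p: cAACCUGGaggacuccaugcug
A 7-base complement of these seeds was in 0 of the 8 probe sequences, which cover only 60 bases of each transcript, so nothing follows about the rest of the messages.

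CXCL1 and CXCL2 were the highest members in MDA-MB-231 with siRNAs against GINS1. CXCL1, also known as GRO-alpha and first found as a growth-stimulating factor of melanoma cells, had a probe 1 brightness of 124 in mock and 932 in transfected cells with siRNA 1, and of 131 and 1084 with siRNA 2, over a local background of 12 and 13 in the mock channels. The log2 ratio of transfected over mock was 2.10 with siRNA 1 and 2.49 with siRNA 2, and lay between -0.25 and 0.69 on the other 6 arrays. Its mean with the siRNAs was 2.30 ± 0.28 (SD, n = 2), a 4.91-fold level. In RNA of whole cultures, more cells making a transcript and more RNA per cell cannot be told apart. Probe 2 gave 1.18 and 1.35 with the siRNAs, a mean of 1.27 ± 0.11 (SD, n = 2), and between -0.10 and 0.31 elsewhere. Both probes thus set the siRNA arrays apart from the other 6, and probe 2 gave the smaller ratio. An offset of 50 added to every spot draws the ratios of dim probes toward 0, and in the scanner software's own log ratio the means of the probes were 2.71 and 2.22. With the probe's median ratio in the other lines subtracted, as a correction for dye bias, probe 1 gave 2.07 and 2.47.

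CXCL2, also known as GRO-beta or macrophage inflammatory protein 2-alpha, followed the same array pattern with 1 exception. Its probe 1 had a brightness of 127 in mock and 825 in transfected cells with siRNA 1, and of 134 and 601 with siRNA 2. The log2 ratio was 1.92 with siRNA 1 and 1.68 with siRNA 2, with a mean of 1.80 ± 0.17 (SD, n = 2), a 3.47-fold level. The exception was miR-139-5p in A498, where probe 1 stood at 0.85, whereas the other 5 arrays lay between -0.23 and 0.42. Probe 2, which CXCL3 shares, gave 1.16 and 1.04 with the siRNAs and 0.49 with miR-139-5p in A498. The order of the siRNAs was not the same for both genes, as CXCL1 was higher with siRNA 2 and CXCL2 with siRNA 1, on both probes of each. In the scanner log ratio CXCL2 probe 2 was level, at 1.70 with siRNA 1 and 1.69 with siRNA 2.

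Of 27803 probes measured with both siRNAs, 13 lay at or above 1 on both arrays, 0.0468% of them. Of these 13, 4 were the CXCL1 and CXCL2 probes, which were the reason for choosing the family, so nothing is read from that share. Just inside this limit was CXCL2 probe 2, with 1.04 on its lower array, and the nearest member outside it was CXCL3, with 0.96 and 0.59.

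CXCL3, also known as GRO-gamma, lay close to background in mock MDA-MB-231 cells, with a mock brightness of 25.8 and 30.3 over a local background of 13 and 14, and a transfected brightness of 107 and 69.6 on the siRNA 1 and siRNA 2 arrays. Its log2 ratio was 0.96 with siRNA 1 and 0.59 with siRNA 2, a mean of 0.78 ± 0.26 (SD, n = 2). This mean was 1.47 with an offset of 10 and 2.26 in the scanner log ratio, so its size rests on how background is treated. Like CXCL2, it was higher with siRNA 1. With miR-139-5p in A498 it stood at 0.44, while the 4 other arrays that measured it lay between -0.22 and -0.01.

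CXCL8, interleukin 8 and the best known neutrophil attractant of the family, was the member on which the siRNAs differed most. Its brightness went from 31.0 in mock to 68.9 with siRNA 1, and from 34.3 to 136 with siRNA 2. The log2 ratio was 0.46 with siRNA 1 and 1.20 with siRNA 2, a mean of 0.83 ± 0.53 (SD, n = 2). On the other 6 arrays it lay between -0.23 and 0.09, so both siRNA arrays were the highest of the 8. With an offset of 10 the siRNA mean was 1.46, and in the scanner log ratio it was 2.04.

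CXCL5 and CXCL6 are the pair with the most alike promoters, and only the former was measured. CXCL5, an epithelial neutrophil attractant, was well above background in both channels of all 8 arrays, with log2 ratios of 0.01 with siRNA 1 and 0.17 with siRNA 2, a mean of 0.09 ± 0.11 (SD, n = 2). Its highest value was 0.34 with miR-490-3p in HCT116, and the 5 remaining arrays lay between -0.08 and 0.03. Its brightness was 105 in mock and 146 in transfected cells with siRNA 1, and 102 and 138.9 with siRNA 2, over a local background of 13 in the mock channels. The siRNA mean was 0.14 in the scanner log ratio and 0.31 with median centring, which leaves the ratios of an array uncorrected for their trend with brightness. CXCL6, granulocyte chemotactic protein 2, was not well above background in either channel of any array, so no ratio is given for it.

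**Figure D2:**
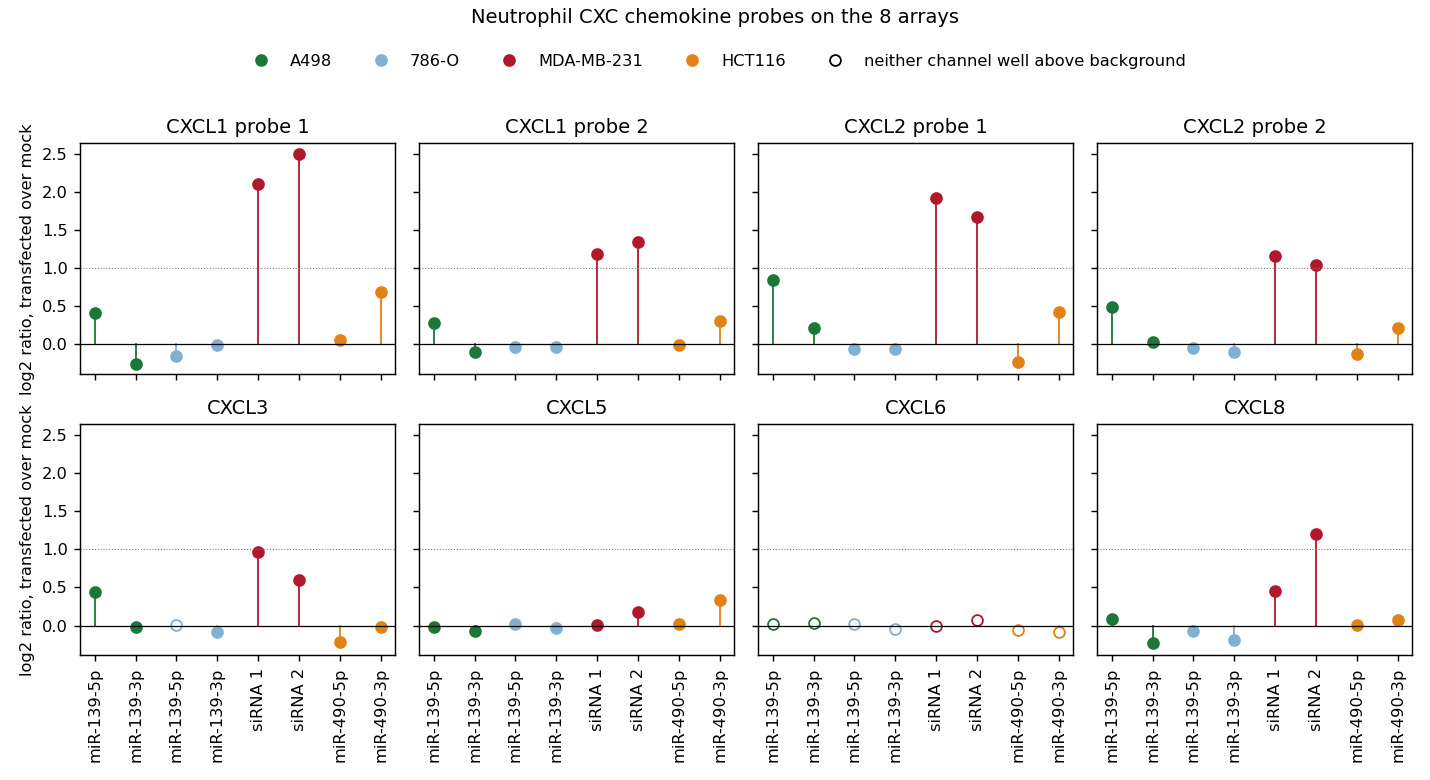
Log2 ratio of transfected over mock for each of the 8 probes (panels) on the 8 arrays, coloured by cell line. Open circles mark arrays on which neither channel was well above background, and the dotted line marks a log2 ratio of 1. Both probes of CXCL1 and CXCL2 lie above 1 on both siRNA arrays, CXCL8 does so with siRNA 2, and CXCL5 stays at or below 0.34 on all 8 arrays.

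The pathway genes of 5 lists, 47 in all, show what else moved in these cells. They were the receptors, other CXC chemokines, NF-kB subunits and feedback genes, cytokines induced with the chemokines, and receptors and adaptors upstream of NF-kB. Of these 35 were measured with both siRNAs, and limma called 5 higher and 0 lower at an adjusted p under 0.05, where 1934 of 27803 probes (6.96%) and 1584 of 21450 genes (7.38%) were called. These calls rest on a shared spread with 3 residual degrees of freedom, which only groups of 2 arrays supply. Those are the siRNA pair and, for each miR-139 strand, A498 against 786-O, while the single miR-490 arrays add none. The calls numbered 1 with dye bias removed, and 0 with the scanner log ratio or with only the si-GINS1 arrays fitted. They numbered 18 without the siRNA 1 array and 19 without the siRNA 2 array.

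The receptors were not seen. CXCR1 and CXCR2, which answer to the chemokines, and ACKR1, a decoy that binds them without signalling, were not well above background on any of the 8 arrays. Among 11 other CXC chemokines 5 were measured, limma called 0 of them, 1 had an unadjusted p under 0.05, and their median log2 ratio was 0.04 against 0.01 for all genes. The interferon-induced CXCL10, one of those measured, was well above background with both siRNAs in the transfected channel only. In mock MDA-MB-231 cells it was not, so no ratio is given for it. CXCL16, a membrane-bound chemokine that attracts T cells, was at -0.20 with siRNA 1 and -0.43 with siRNA 2.

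NF-kB subunits and feedback genes had the highest median of the lists, 0.50 over 13 measured genes, 3 of which rose. RELA, the p65 subunit, was at 0.73 with siRNA 1 and 0.44 with siRNA 2 (mean 0.58 ± 0.21 (SD, n = 2), limma adjusted p 0.0295). Both HCT116 arrays also had RELA above 0, by 0.32 (miR-490-5p) and 0.37 (miR-490-3p). TNFAIP3, which encodes the inhibitor A20, was at 0.50 and 0.75 (mean 0.62 ± 0.17 (SD, n = 2), limma adjusted p 0.0396). NFKB2, the precursor of p52, was at 0.52 and 0.32 (mean 0.42 ± 0.15 (SD, n = 2), limma adjusted p 0.0360). The other 10 did not pass. RELB stood at 1.15 with siRNA 1 and 0.52 with siRNA 2 (limma adjusted p 0.0544), the inhibitor gene NFKBIB at 1.12 and 0.29, and ICAM1, an adhesion molecule for neutrophils, at 1.05 and -0.04. NFKBIA, the inhibitor that NF-kB itself induces, stood at 0.89 and 0.35 (limma adjusted p 0.0700). BIRC3, an NF-kB target that blocks cell death, was at -0.45 and 0.36, and NFKBIZ, an atypical inhibitor family member, at -0.13 and 0.21.

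Of 11 cytokines induced along with the chemokines 8 were measured, limma called 0 of them, 2 had an unadjusted p under 0.05, and the median was 0.36. IL6 was at 0.88 with siRNA 1 and 3.04 with siRNA 2, a mean of 1.96 ± 1.53 (SD, n = 2; limma adjusted p 0.0964). IL1B was at -0.05 and 1.26, and CSF2, which encodes the growth factor GM-CSF, at 1.29 and 0.22. LIF was at 0.09 with siRNA 1 and 0.90 with siRNA 2. CSF1 and CCL5 were alike on both arrays, at -0.20 and -0.11 and at -0.10 and 0.00. TNF and CSF3 were not well above background in mock cells of this line. IL6, IL1B and CXCL8 were each higher with siRNA 2, whereas CSF2 and RELB were higher with siRNA 1, and these differences between single arrays were not tested.

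Upstream, 2 of 9 measured genes rose, with a median of 0.29. IL17RA, a receptor chain for interleukin 17, was at 0.60 and 0.66 (mean 0.63 ± 0.04 (SD, n = 2), limma adjusted p 0.0259), but was also at 0.91 with miR-490-5p in HCT116. TRAF6, an adaptor of interleukin 1 and Toll-like receptors, was at 0.25 and 0.32 (mean 0.29 ± 0.05 (SD, n = 2), limma adjusted p 0.0359). The miR-490-3p array of HCT116 gave a similar TRAF6 value, 0.26, whereas the miR-490-5p array gave -0.10. IL1RAP, the accessory chain of the interleukin 1 receptor, was at -0.17 with siRNA 1 and 1.73 with siRNA 2. The leukocyte markers found stood below 0 or near it. CD14 was at -1.18 and -1.20 (limma adjusted p 0.0107), CSF1R at -1.60 and -0.55, PTPRC at 0.18 and 0.22, and ITGAM at -0.08 and -0.07. Their part in these values was not tested.

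**Figure D3:**
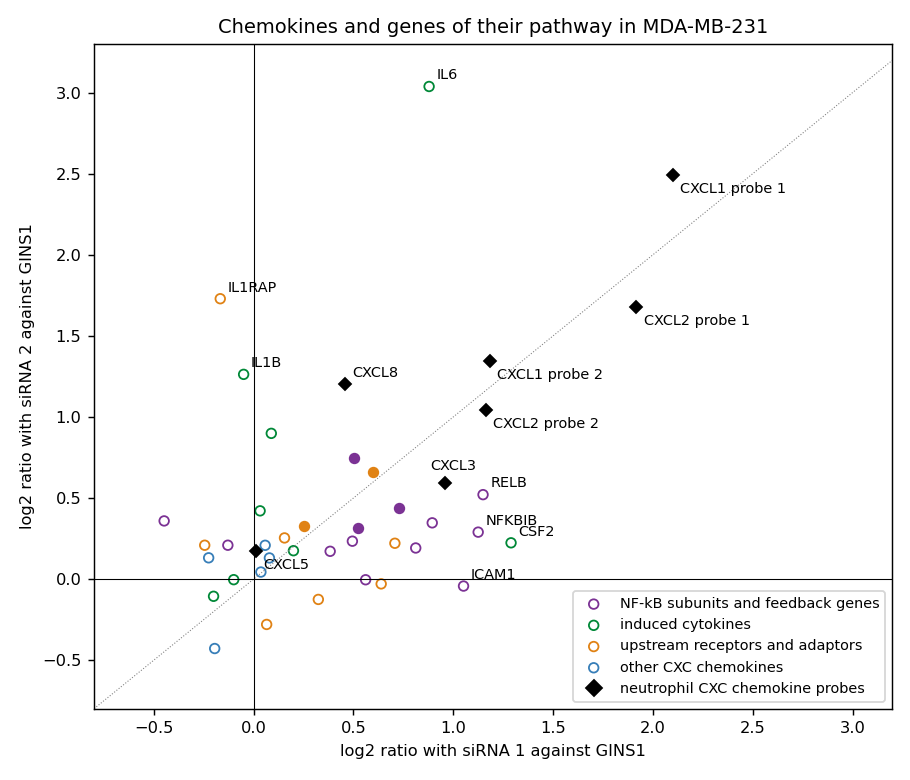
Log2 ratio with siRNA 2 (vertical) against siRNA 1 (horizontal) for chemokine probes (diamonds) and the measured pathway genes (circles, coloured by list), both over mock in MDA-MB-231. Filled circles passed limma at an adjusted p under 0.05, open circles did not, and the dotted line marks equal values. CXCL1 and CXCL2 lie near that line, whereas IL6, IL1B, IL1RAP and CXCL8 lie above it and CSF2 and ICAM1 below it.

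Across all 8 arrays the other members followed CXCL1 and CXCL2 to unequal degrees. The Pearson correlation with the mean of their probe 1 was 0.91 for CXCL3, 0.89 for CXCL8 and 0.32 for CXCL5 (n = 8 arrays, a description only). Among 3407 genes that were measured on all arrays and varied there, TLNRD1 (0.99), RALGAPA1 (0.99), EIF3J (0.98), PLEKHA3 (0.96) and ZFAND3 (0.96) had the most similar pattern. TLNRD1, for example, was at 0.74 and 0.70 on the siRNA arrays and between -0.11 and 0.23 on the others. These correlations rest mostly on the siRNA arrays, and all points share a slide and possibly mock extracts.

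The miR-139 strands were set against mock in A498 and 786-O, arrays that the choice of genes did not use. limma called 3 of 23288 probes with miR-139-5p (0.0129%) and 0 of 22813 with miR-139-3p (0%), with 591 and 1014 at an unadjusted p under 0.05. The 3 calls fell to 0 without either the A498 or the 786-O array. Of the chemokines, 6 probes of 4 genes were tested with miR-139-5p and 7 probes of 5 genes with miR-139-3p. No member was called with either strand, 0 had an unadjusted p under 0.05, and the limma adjusted p was 0.999932 or above for each. CXCL6 was not well above background in these arrays, and CXCL3 not on the 786-O array with miR-139-5p.

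The renal lines nevertheless gave different values. With miR-139-5p in A498, CXCL2 probe 1 was at 0.85, CXCL3 at 0.44 and CXCL1 probe 1 at 0.42, while CXCL8 was at 0.09 and CXCL5 at -0.01. With the same strand in 786-O, CXCL1 probe 1 was at -0.15, CXCL2 probe 1 at -0.06, CXCL8 at -0.07 and CXCL5 at 0.02. The means over both lines were 0.40 ± 0.64 (SD, n = 2; SE 0.22) for CXCL2 and 0.14 ± 0.40 (SD, n = 2; SE 0.17) for CXCL1, so the spread between the lines was larger than the mean. With miR-139-3p the ratio of CXCL8 was -0.23 in A498 and -0.19 in 786-O, with a mean of -0.21 ± 0.03 (SD, n = 2; SE 0.18, limma adjusted p 0.999932), a mean that was -0.41 without background correction, -0.46 with an offset of 10 and -0.74 in the scanner log ratio. CXCL8 was the only member measured with that strand to lie under -0.1 in both lines.

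A comparison of both strands within a line removes what a probe's dye uptake adds to each ratio. In A498 miR-139-3p minus miR-139-5p was -0.67 and -0.39 for the CXCL1 probes, -0.63 and -0.46 for the CXCL2 probes, -0.46 for CXCL3, -0.32 for CXCL8 and -0.06 for CXCL5. In 786-O the differences of the 6 probes measured on both arrays lay between -0.12 and 0.14. All 7 measured probes were thus lower with the 3p strand in A498. In 786-O CXCL1 probe 1, at 0.14, was higher with the 3p strand, and CXCL1 probe 2 (-0.003) and CXCL2 probe 1 (-0.006) were level. CXCL2 probe 2 (-0.05), CXCL5 (-0.05) and CXCL8 (-0.12) were slightly lower. Over both lines limma called 0 of 22178 probes (0%) different between strands, 150 had an unadjusted p under 0.05, and of 6 chemokine probes tested 0 were called and 0 had an unadjusted p under 0.05. The mean difference was -0.32 for CXCL2 probe 1 (SE 0.32) and -0.26 for CXCL1 probe 1 (SE 0.24), each with a limma adjusted p of 0.999947. In the 5 pathway lists limma called 0 of 29 genes with miR-139-5p, 0 of 28 with miR-139-3p and 0 of 28 between the strands, with 1, 2 and 0 at an unadjusted p under 0.05. With miR-139-3p in A498, IL6 was at -0.78, CSF2 at -0.79 and CCL5 at -0.91, and with miR-139-5p in A498 they were at 0.30, 0.23 and -0.82. In 786-O miR-139-3p gave smaller values, -0.21 for IL6 and -0.17 for CSF2, and CCL5 was not well above background in mock cells.

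**Figure D4:**
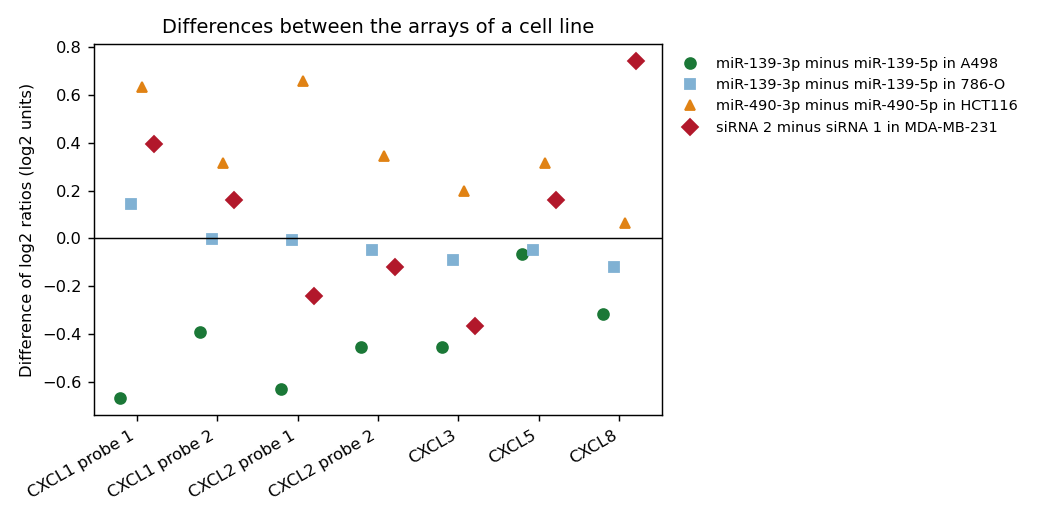
Difference of log2 ratios between the arrays of each cell line (vertical, log2 units) for the 7 probes above background (CXCL3 was not so on 1 of the 786-O arrays). Circles and squares are miR-139-3p minus miR-139-5p in A498 and 786-O, triangles miR-490-3p minus miR-490-5p in HCT116, and diamonds siRNA 2 minus siRNA 1 in MDA-MB-231. The A498 points lie below 0 for all 7 probes and the HCT116 points above 0 (those of CXCL3 and CXCL8 rest on a channel that was not well above background with miR-490-5p), while the MDA-MB-231 points have both signs.

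In HCT116 no chemokine reached a log2 ratio of 1 in size with either strand of miR-490, a limit passed by 1.23% of the probes measured with miR-490-5p and 0.924% of those with miR-490-3p. With 1 array a strand there was no test. The 5p and 3p strands gave 0.05 and 0.69 for CXCL1 probe 1 and -0.01 and 0.31 for its probe 2. CXCL2 probe 1 was at -0.23 and 0.42 and CXCL5 at 0.03 and 0.34. The mock channel of CXCL8 was not well above background with miR-490-5p. Its brightness there was 27.4, against 24.0 in transfected cells, and no direction is read from it. With miR-490-3p the ratio of CXCL8 was 0.07. CXCL3 was measured in mock, but its transfected channel was not well above background with miR-490-5p, where its ratio was -0.22. With miR-490-3p the ratio of CXCL3 was -0.02. The 5 probes of CXCL1, CXCL2 and CXCL5, measured in both channels of both arrays, were higher with the 3p strand than with the 5p strand, by 0.31 for CXCL5 up to 0.66 for CXCL2 probe 1. In the scanner log ratio the brightest probe of 3 members passed 1 in size on 1 of these arrays. These were CXCL1 and CXCL2 with miR-490-3p (1.11 and 1.03) and CXCL3 with miR-490-5p (-1.71). CXCL2 probe 2 passed it with the other strand, at -1.01 with miR-490-5p against 0.82 with miR-490-3p. Of the pathway genes only BIRC3 reached 1 here, at 1.52 with the 3p strand, against 0.14 with the 5p strand.

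The mock channels gave the RNA level of each chemokine in cells of each line without transfection. Each probe was compared only with itself across the lines, on a scale of log2 intensity normalized between arrays, and no test was run, since both mock channels of a line may hold 1 extract. Lines are called ordered where both channels of one lay above both of the next. CXCL1 probe 1 stood at 7.78 and 7.83 (A498), 7.20 and 7.21 (786-O), 7.03 and 7.05 (MDA-MB-231) and 6.57 and 6.56 (HCT116), all ordered, a 2.37-fold range. Its probe 2 put MDA-MB-231 (6.24 on average) above 786-O (6.18), so the order of these lines is not settled. CXCL2 probe 1 had the widest range, 4.04-fold, from 8.26 and 8.15 in A498 over 7.04 and 7.07 in MDA-MB-231 and 6.54 and 6.58 in 786-O to 6.20 and 6.17 in HCT116. Its probe 2 gave the same order.

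CXCL3 was highest in A498 (6.36 and 6.34), and the 3 other lines, between 5.86 and 5.99, were not ordered, and 1 of the 786-O channels was not well above background. For CXCL8, A498 (6.44 and 6.49) and 786-O (6.40 and 6.44) overlapped, followed by MDA-MB-231 (6.01 and 6.03) and HCT116 (5.86 in both channels, 1 of them well above background). CXCL5 departed from the rest. It was highest in 786-O (7.42 and 7.50), then A498 (7.03 and 7.05), with MDA-MB-231 (6.87 and 6.82) and HCT116 (6.75 and 6.88) overlapping, a 1.56-fold range. CXCL6 was at background in every line. A498 thus had the highest mock level of CXCL1, CXCL2 and CXCL3, and HCT116 the lowest of CXCL1 and CXCL2. Over the probes well above background in both mock channels of a line, these channels differed with an SD between 0.06 and 0.10 log2 units.

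**Figure D5:**
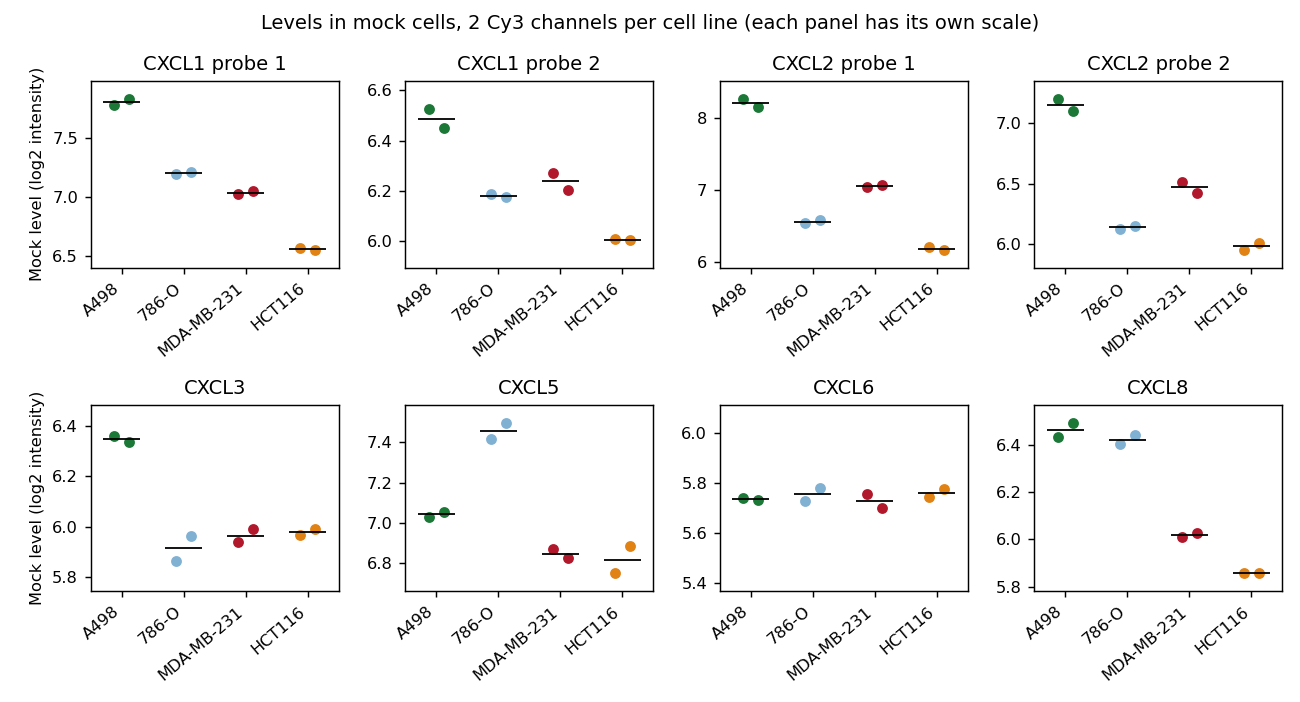
Levels of the 8 probes in mock cells (vertical, log2 intensity normalized between arrays, own scale per panel) in the 4 cell lines. Points are the 2 mock channels of a line and bars their mean. A498 is highest for CXCL1, CXCL2 and CXCL3, 786-O is highest for CXCL5, and CXCL6 lies near 5.7 in all lines.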

How the data were processed

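The chemokines, the pathway lists and the tests were chosen with earlier results of these data known. Per the file headers the authors read the scans with Agilent Feature Extraction 11.5.1.1. They deposited linear spot intensity and local background per channel, and a log10 ratio of Cy5 over Cy3, here called the scanner log ratio and turned into log2. The values the authors gave for the whole series were the same log10 ratios (largest difference 0).

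Each array had 62976 spots, 2075 of them controls. No spot was saturated (0), and outlier spots (169 to 272 per array) were dropped. Background correction used normexp with an offset of 50 and ratios were then normalized by loess within each array in limma 3.58.1 (R 4.3.3, the data.table package, version 1.17.8). Spots of a probe were averaged, and 31104 of 33080 probes with a RefSeq accession were named by it. Mock levels were quantile normalized between arrays. Array number limits precision.

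One limma model held all 8 arrays, 5 groups and 3 residual degrees of freedom. A probe was tested if each array of a group had it well above background in either channel, with Benjamini-Hochberg adjustment, and was checked on simulated data. The miR-139 arrays pair by cell line (correlation of deviations 0.0753 over 22174 probes). Named were all probes of the 6 genes. From the lists, by their brightest probe, came genes that passed limma or reached 1 in size on an array, and the receptors. A few more were picked after their values were seen (CXCL10, CXCL16, NFKBIA, NFKBIZ, CSF1, CCL5, LIF, TNF, CSF3, leukocyte markers). The 5 genes of most similar pattern needed an SD of at least 0.3 over the arrays. Sequences were read from RefSeq tables and the array annotation in Python 3.11.15 with pandas 2.3.3 and biopython 1.88, and drawn with matplotlib 3.10.9. Alternatives were background, normalization, filter, fit, block, dye bias and left-out arrays. Protein and siRNA sequences were not used here.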

Additional observations from a re-analysis of the deposited data

Results flagged for a closer look

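CXCL2 probe 1 was higher on both miR-139 arrays of A498 (0.85 and 0.22) than on those of 786-O (-0.06 on both), every array of one line above 0 and every array of the other below it. The mean log2 ratio over both strands differed by 0.59 between the lines. This difference was not tested, and the arrays of a line may share a mock extract.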

How the results depend on the processing

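Counts of calls moved with the processing. Probes called with si-GINS1 (1934) numbered 2975 with median centring, 75 with the scanner log ratio, 711 with dye bias removed, 0 with only the arrays of the groups compared, and 6666 to 9391 with 1 siRNA array left out, where the lone array is assumed to vary like the other groups. Pathway genes called with si-GINS1 (5) numbered 0 with the scanner log ratio, 1 with dye bias removed, 0 with only the arrays compared and 18 to 19 with 1 siRNA array left out (18 without siRNA 1). Probes called with miR-139-5p (3) numbered 6 with an offset of 10, 7 with the scanner log ratio, 6 with only the arrays compared, and 0 with median centring, dye bias removed, no filter, a random block of cell line or either array left out. Probes called with miR-139-3p (0) numbered 4 without background correction, 6 with an offset of 10, 13 with the scanner log ratio, 7 with only the arrays compared and 3 with a robust variance prior that followed a trend. The strand contrast gave 0 calls with cell line as a replicate block, as without it, and this pairing changed no call. The causes of these moves were not tested.

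Members at or above 1 on both siRNA arrays were 2 (CXCL1 and CXCL2), 3 without background correction or with an offset of 10 (CXCL3 was added), and 4 with the scanner log ratio (CXCL3 and CXCL8 were added). Members past 1 in size with miR-490 were 0, and 3 with the scanner log ratio. Members past 1 in size with miR-139 were 0, and 1 with median centring (CXCL2, 1.18, miR-139-5p in A498) or the scanner log ratio (CXCL3, 1.07, same array). With median centring the median of all probes above background was 0.16 with siRNA 1, against 0.02 in the main setting and 0.04 with the scanner log ratio. Removal of dye bias subtracts a probe's median over the other lines, the siRNA arrays included, so for CXCL1 and CXCL2 it was read only on the siRNA arrays. Brightness limits most CXCL3, CXCL6 and CXCL8, which lay near background.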

Other observations

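A further pair of probes carried no chemokine symbol but lay in the same part of chromosome 4. The probe of lnc-MTHFD2L-1, at hg19 positions 74964319 to 74964378, overlaps the position of CXCL2 probe 2, and that of THC2627589 lies at 74714496 to 74714555. Neither was well above background in any channel of the 8 arrays, and their log2 ratios with siRNA 1 and siRNA 2 were 0.02 and 0.06 for the former and -0.04 and 0.10 for the latter.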
